A study of Canis lupus familiaris with 13 samples.

Results

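The genes described here make the machinery of DNA replication and the nucleotides it consumes. They were 34 genes chosen by name, from the factors that license replication origins to the enzymes that supply deoxynucleotides. The choice was made with earlier results of these data known, so the shares below describe the list and do not test it. Of the 34, 33 had at least 1 named probe set (a set of short probes that reads 1 transcript), with 70 probe sets in all out of 42924 tested. The DNA ligase LIG1 was not analysed here. Each gene is described at the probe set with its highest mean level over all samples, out of 15115 genes treated the same way, and its other probe sets are given where they differ in sign or in passing the test.

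The tissue was canine soft tissue sarcoma, a group of cancers that arise from connective tissue, and RNA of primary tumours was read on an Affymetrix array. The metastatic group held 5 tumours, MET1 to MET5. The non-metastatic group held 8 tumours, NM1 to NM8, from cases free of metastasis for 1 year or longer. No tumour had been treated, and the labels give neither a breed, an age nor a histological subtype. They also do not say that the tumours came from separate dogs, so a p-value speaks only of the spread among these 13 samples.

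Cells prepare to copy their DNA in G1 phase, when the origin recognition complex (ORC), CDC6 and CDT1 load the MCM2 to MCM7 helicase onto origins, a step called licensing. In S phase, cyclin E and its kinase, MCM10, CDC45 and the GINS complex turn the loaded helicase on, after which polymerases, the sliding clamp PCNA and its loader RFC, and the lagging-strand enzymes copy both strands. Ribonucleotide reductase (RRM1 and RRM2), thymidylate synthase (TYMS) and thymidine kinase (TK1) supply the deoxynucleotides. Many of these genes are transcribed at the G1/S boundary under E2F factors, so tissues with more cycling cells usually carry more of their RNA.

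All values are log2 intensities and all differences are metastatic minus non-metastatic on that scale. Sample medians lay between 6.71 and 6.94, with the lowest in NM1 (6.74), NM3 (6.71) and NM4 (6.71) and 6.87 to 6.94 in the other arrays. The tumours carried their expected mesenchymal RNA, with VIM averaging 13.32 in metastatic and 13.60 in non-metastatic tumours, and COL1A1 13.17 and 13.16. These genes come from a list of 14 mesenchymal markers, of which 4 others were lower in metastatic tumours, as given below. Poly-A control transcripts, which are added to RNA before labelling, gave no signal above 6 at their 3′ ends in NM1, NM3 and NM4. In NM2 their 3′ ends exceeded their 5′ ends by 3.54, against at most 0.959 in the other arrays with signal. The remaining 9 arrays (MET1 to MET5 and NM5 to NM8) were therefore also compared on their own. They are called the like-labelled arrays, a name that refers only to their control signal. The labels do not say that the other arrays were labelled in another way. The labels give no batch, and control signal and group overlap, since every array that differs in it is non-metastatic. Control probe sets without their target ranged from 2.63 to 7.16 with a median of 4.45, and 10 of the 33 genes had non-metastatic means not above 7.16. Their levels cannot be told apart from that range, so the sizes of their differences are not exact: ORC1, CDC6, MCM2, MCM10, CCNE1, CCNE2, PRIM1, CHAF1A, TIMELESS and TK1. The 3′ minus 5′ value of ACTB, which grows as RNA degrades, averaged 1.96 ± 0.593 in metastatic tumours (SD, n = 5) and 1.47 ± 0.918 in non-metastatic tumours (SD, n = 8; exact two-sided permutation p = 0.316). It was lowest in the arrays without control signal, NM1 (0.64), NM3 (0.39) and NM4 (0.88), against 1.23 (NM8) to 3.14 (NM2) in all other arrays.

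Of the 33 genes, 7 were higher in metastatic tumours in limma's test with an adjusted p under 0.05 over all probe sets, and 0 were lower. That is 21.2%, where 1.65% of all named genes passed as higher and 3.7% as lower. By probe set, 12 of 70 were higher, where 1.56% of all probe sets were. The 7 were the origin factors ORC1 and ORC6, the licensing inhibitor GMNN, the polymerase subunit POLE2, the flap endonuclease FEN1, and the nucleotide enzymes RRM2 and TK1. An eighth gene, the licensing factor CDC6, passed at its other 2 probe sets. At an unadjusted p under 0.05, 22 of the 33 were higher and 0 lower, where 12.0% of all named genes were higher and as large a share lower. The difference was positive for 31 of the 33 (93.9%), against 56.1% of all named genes, and its median was 0.50 against 0.05. MCM7 and RFC2 were the 2 with a negative difference, neither past the test. In bulk tissue, more cells carrying a transcript and more RNA per cell cannot be told apart.

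Within the like-labelled arrays 2 of the 33 passed as higher, RRM2 and TK1, and 0 as lower, where 0.576% of all named genes passed as higher and 2.24% as lower. By probe set, 3 of 70 were higher, where 0.578% of all probe sets were. There, 31 of 33 differences were again positive, the median was 0.52 against 0.03 for all named genes, and 18 were higher at an unadjusted p under 0.05, where 8.92% of all named genes were. That subset has fewer arrays, and leaving out 1 more moved its count of passing genes to between 0 and 4, with 0 without MET5 and 0 without NM8 (11 and 12 genes at an unadjusted p under 0.05). Every metastatic tumour was above every non-metastatic tumour for 5 of the 33 genes (15.2%: ORC1, ORC6, GMNN, RRM2 and TK1), where 1.35% of all named genes were. Within the like-labelled arrays this held for 6 of the 33, where it held for 4.47% of all named genes.

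**Figure D1:**
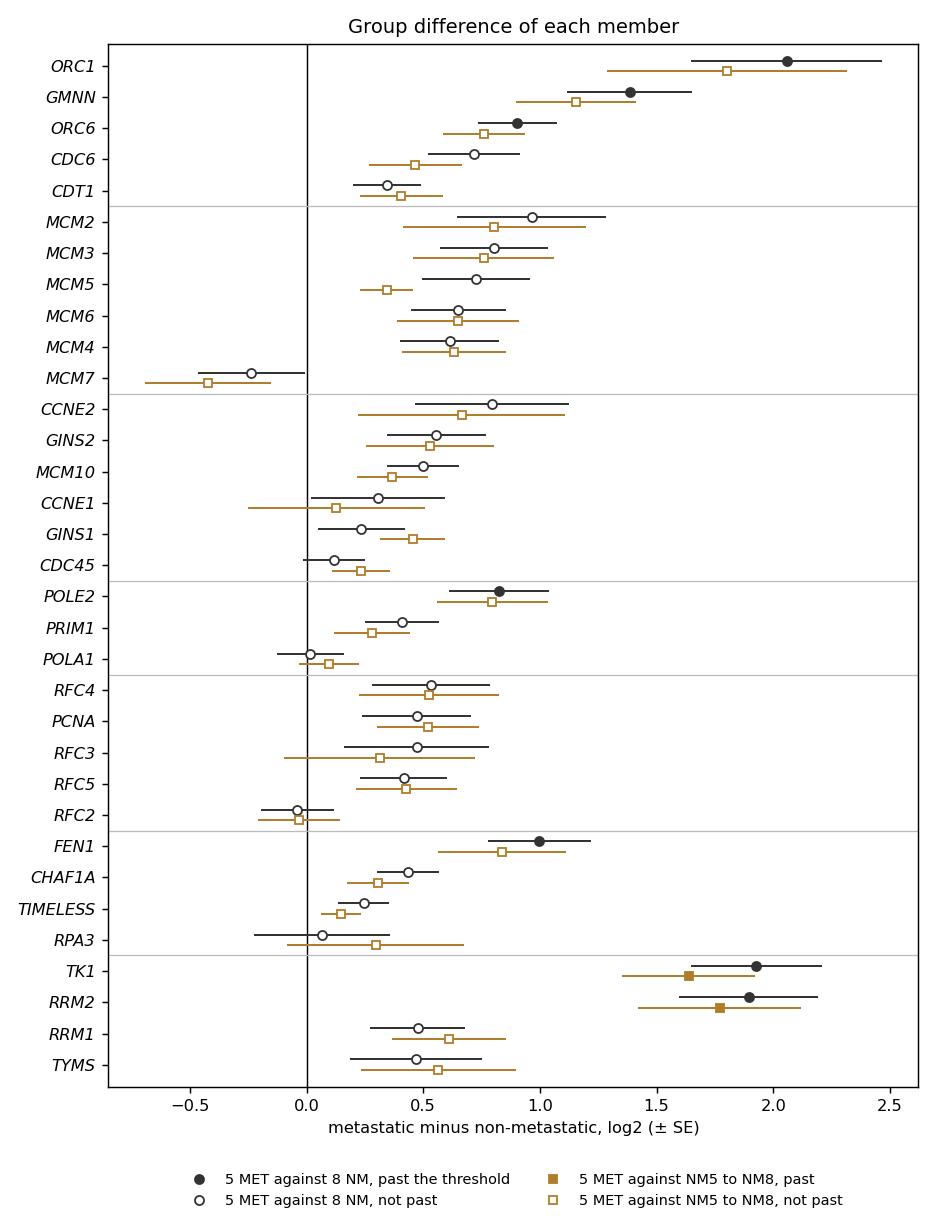
Difference of each gene (log2, metastatic minus non-metastatic, ± SE) over all 13 tumours and over the 9 like-labelled arrays, in order of role. Nearly all points lie right of 0, with ORC1, TK1 and RRM2 farthest, while MCM7 and RFC2 lie left of it.

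Origin licensing genes, counted with the licensing inhibitor GMNN, differed by a median of 0.90, and 3 of 5 passed. ORC1, the ORC subunit that joins the complex in G1 phase and is degraded in S phase in human cells, read 8.62, 7.84, 6.89, 6.51 and 9.12 in MET1 to MET5, against a lowest, median and highest value of 4.63, 5.89 and 6.31 in non-metastatic tumours. The groups did not overlap, with MET5 and MET1 far above MET4, which was only just clear of the highest non-metastatic tumour. The difference was 2.06 ± 0.41 (SE, adjusted p = 0.0141, 4.16-fold), and 1.8 within the like-labelled arrays (adjusted p = 0.0989). A further ORC1 probe set passed (1.38, adjusted p = 0.0265) and the last did not (0.74, adjusted p = 0.0746). For both of these, the metastatic and the non-metastatic mean lay within the range of probe sets without target.

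ORC6, the smallest subunit, read 8.90, 8.87, 8.5, 8.67 and 9.43 in MET1 to MET5, against 7.55, 8.04 and 8.27 (lowest, median, highest) in non-metastatic tumours. Again no values overlapped, and here the metastatic tumours lay close together apart from a higher MET5. The difference was 0.90 ± 0.17 (adjusted p = 0.011, 1.87-fold), and 0.76 within the like-labelled arrays (adjusted p = 0.0569). Its other 2 probe sets differed by 1.5 (adjusted p = 0.0861) and 0.95 (adjusted p = 0.181). The other ORC subunits, looked up because of this result, did not pass, with differences of -0.51 for ORC2, -0.08 for ORC3, -0.38 for ORC4 and -0.49 for ORC5.

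GMNN encodes geminin, which binds CDT1 in S and G2 phase and so blocks a second round of licensing. It read 9.48, 8.89, 8.77, 9.61 and 9.04 in MET1 to MET5, against 6.83, 7.70 and 8.46 (lowest, median, highest) in non-metastatic tumours. All metastatic tumours were above all others, and here MET4, low for ORC1, was the highest. The difference was 1.39 ± 0.27 (adjusted p = 0.0128, 2.61-fold), its second probe set gave 1.17 (adjusted p = 0.00529), and the like-labelled arrays gave 1.15 (adjusted p = 0.0506). ORC1, ORC6 and GMNN kept passing with any 1 of the 13 tumours left out.

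CDT1 itself, the loader that geminin inhibits, read 8.58, 7.86, 7.76, 7.66 and 7.91 in MET1 to MET5, against 7.44, 7.61 and 7.85 (lowest, median, highest) in non-metastatic tumours. MET1 stood apart, and the groups overlapped. The difference was 0.35 ± 0.15 (adjusted p = 0.176) with a 95% interval of 0.03 to 0.66. Its other probe set, nearly as bright, differed by 0.92 ± 0.29 (adjusted p = 0.0787), with 9.18, 8.26, 7.57, 7.18 and 8.01 in MET1 to MET5, against 6.45, 7.2 and 7.57 (lowest, median, highest) in non-metastatic tumours. Subtracting CDT1 from GMNN within each tumour gave 1.20 ± 0.42 in metastatic tumours (SD, n = 5, range 0.90 to 1.95) and 0.16 ± 0.62 in non-metastatic tumours (SD, n = 8, range -0.75 to 0.90), touching at 0.90. The difference of this contrast was 1.04, 0.75 within the like-labelled arrays, and 0.65 with all probe sets of each gene averaged. Its size thus depends on the arrays compared and on the CDT1 probe set. This contrast and the 3 further contrasts given below were chosen after the values were seen and carry no test. They show unequal differences between genes, not that one gene was unchanged.

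CDC6, the ATPase that works with ORC to load the helicase, showed how much the choice of probe set can matter. Its brightest probe set read 7.97, 7.33, 7.34, 7.07 and 7.88 in MET1 to MET5, against 6.29, 6.87 and 7.32 (lowest, median, highest) in non-metastatic tumours, overlapping only through MET4. The difference of 0.72 ± 0.20 just missed the test (adjusted p = 0.0537). Another probe set read 8.62, 7.23, 6.76, 6.84 and 8.34, against 5.34, 6.15 and 6.63, without overlap and with a difference of 1.53 ± 0.33 (adjusted p = 0.0195). The last gave 0.72 ± 0.18, also without overlap (adjusted p = 0.0333). Its means of 6.99 in metastatic and 6.27 in non-metastatic tumours lay within the range of probe sets without target. Within the like-labelled arrays none of the 3 passed (adjusted p = 0.0897 to 0.234).

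**Figure D2:**
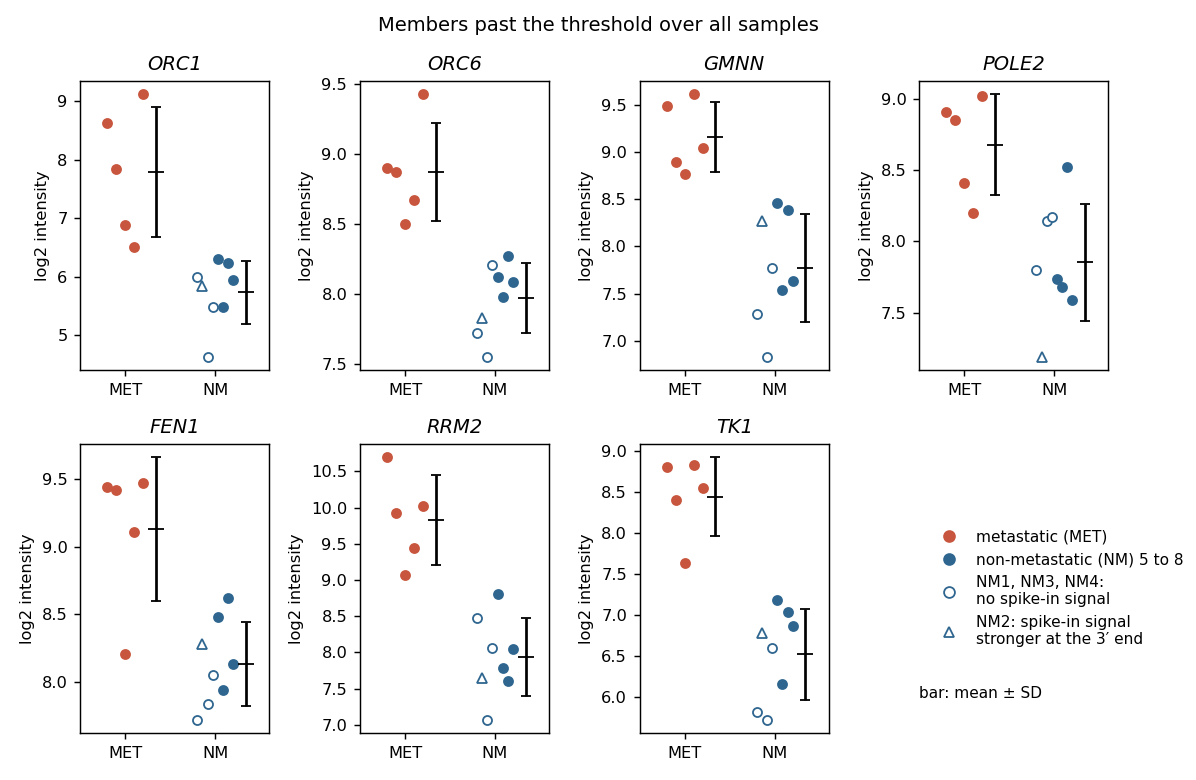
Log2 intensity in each tumour (points), with mean ± SD beside them, for the 7 genes past the test, metastatic (MET) left of non-metastatic (NM). Open points mark non-metastatic arrays outside the like-labelled set; only POLE2 and FEN1 have overlapping groups.

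The MCM2 to MCM7 proteins form 1 hexameric ring, the core of the replicative helicase. Their median difference was 0.69 and 0 of 6 passed, although 5 of 6 had an unadjusted p under 0.05. MCM2, with the widest difference of the 6, read 8.95, 7.28, 7.27, 6.70 and 7.61 in MET1 to MET5, against 5.94, 6.67 and 7.13 (lowest, median, highest) in non-metastatic tumours. MET1 was well above all others, and MET4 lay inside the non-metastatic range. The difference was 0.97 ± 0.32 (adjusted p = 0.0945, 95% interval 0.28 to 1.65). MCM3 had the same leaders, with 9.07 in MET1 and 8.77 in MET5 against 7.64 to 7.92 in the other metastatic tumours and at most 7.77 in non-metastatic tumours. MCM6 was led by MET2 instead, with 12.06 there, 10.70 to 11.50 in the other metastatic tumours and 10.33 to 11.05 in non-metastatic tumours. MCM3, MCM4, MCM5 and MCM6 differed by 0.80, 0.61, 0.73 and 0.65 with adjusted p between 0.0603 and 0.108. After quantile normalization of the arrays MCM4, MCM5 and MCM6 passed, with differences of 0.80, 0.91 and 0.85 (adjusted p = 0.0426, 0.0493 and 0.0428). Among the non-metastatic arrays, comparing those with control signal at both ends with those without any, 2 of the 33 genes were higher (CDC6 by 0.61 and MCM5), where 17.1% of all named genes were. In MCM5 NM5 to NM8 exceeded NM1, NM3 and NM4 by 1.00 (limma, adjusted p = 0.0037), a gap that its other 2 probe sets did not show (-0.07 and -0.04), and its group difference was 0.34 within the like-labelled arrays.

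MCM7 was the exception in the ring. It read 9.74, 8.49, 8.79, 8.34 and 8.94 in MET1 to MET5, against 8.42, 9.10 and 9.53 (lowest, median, highest) in non-metastatic tumours. MET1 was the highest and MET4 the lowest of all 13 tumours, so the metastatic values spanned the whole non-metastatic range. The difference was -0.24 ± 0.23 (adjusted p = 0.539, 95% interval -0.73 to 0.25), and a second MCM7 probe set gave -0.26 (adjusted p = 0.694). Within each tumour, MCM7 minus the mean of MCM2 to MCM6 was -0.65 ± 0.31 in metastatic tumours (SD, n = 5, range -1.0 to -0.29) and 0.33 ± 0.24 in non-metastatic tumours (SD, n = 8, range -0.13 to 0.60). The ranges did not meet, and the difference of -0.99 was -1.06 within the like-labelled arrays and -0.88 with all probe sets averaged. Levels of different probe sets are not comparable, so only the change of this contrast between groups can be read.

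**Figure D3:**
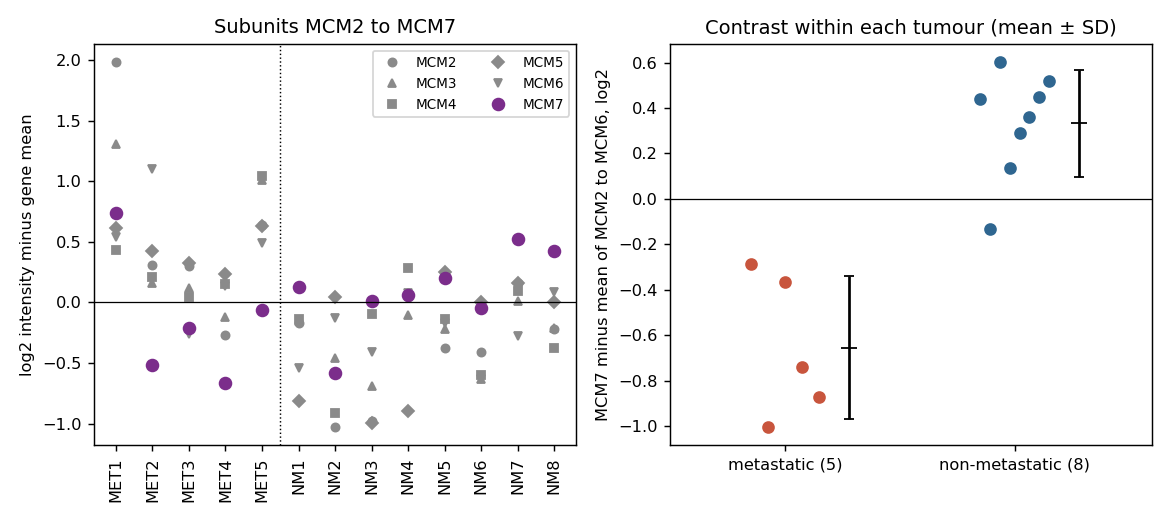
Left, log2 intensity minus the gene's mean over 13 tumours for MCM2 to MCM7 in each tumour; right, MCM7 minus the mean of MCM2 to MCM6 within each tumour, with mean ± SD. MCM2 to MCM6 lie mostly above 0 in metastatic tumours while MCM7 does so only in MET1, and the contrast is below -0.28 in all 5 metastatic tumours and above -0.14 in all 8 non-metastatic tumours.

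Origin firing genes differed less, with a median of 0.40 and 0 of 6 past the test (3 at an unadjusted p under 0.05). CCNE2, a cyclin E that activates CDK2 at the G1/S boundary, had the widest difference. It read 7.07, 8.64, 6.90, 7.53 and 9.13 in MET1 to MET5, against 6.61, 7.15 and 7.37 (lowest, median, highest) in non-metastatic tumours. MET5 and MET2 were more than 1 log2 unit above every non-metastatic tumour, while MET1 and MET3 lay among them. The difference was 0.79 ± 0.33 (adjusted p = 0.167, 95% interval 0.09 to 1.5). CCNE1, the other cyclin E, differed by 0.31 ± 0.29 (adjusted p = 0.523).

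MCM10 and CDC45 join the helicase as it is switched on, and GINS1 and GINS2 are subunits of the GINS complex that completes it. MCM10 differed by 0.50 ± 0.15 (adjusted p = 0.0774) and GINS2 by 0.56 ± 0.21 (adjusted p = 0.141). CDC45 had the narrowest difference, with 7.61, 7.28, 7.25, 7.32 and 7.47 in MET1 to MET5, against 7.02, 7.25 and 7.63 (lowest, median, highest) in non-metastatic tumours. All its metastatic values lay inside the non-metastatic range, and the difference was 0.12 ± 0.13 (adjusted p = 0.60, 95% interval -0.17 to 0.40). GINS1 differed by 0.24 ± 0.19 (adjusted p = 0.443), and of its 4 probe sets a dim one ran the other way (-0.58, adjusted p = 0.0587), with means of 4.28 in metastatic and 4.86 in non-metastatic tumours. Those means lie within the range of probe sets without target.

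Among polymerase and primase genes, POLE2, the second subunit of the leading-strand polymerase epsilon, was higher in metastatic tumours. It read 8.91, 8.85, 8.41, 8.2 and 9.02 in MET1 to MET5, against 7.19, 7.77 and 8.52 (lowest, median, highest) in non-metastatic tumours. MET3 and MET4 lay below the highest non-metastatic value, so the groups overlapped. The difference was 0.82 ± 0.21 (adjusted p = 0.0418, 1.77-fold), and 0.80 within the like-labelled arrays (adjusted p = 0.111). It was lost in 10 of the 13 fits that left out 1 tumour, passing only without MET4, NM2 or NM7.

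POLA1, the catalytic subunit of polymerase alpha, which starts each strand, read 7.45, 7.23, 7.01, 7.0 and 7.2 in MET1 to MET5, against 6.81, 7.16 and 7.59 (lowest, median, highest) in non-metastatic tumours. Every metastatic value lay inside the non-metastatic range. The difference was 0.02 ± 0.14 (adjusted p = 0.956, 95% interval -0.29 to 0.32). PRIM1, the catalytic subunit of its primase, differed by 0.41 ± 0.16 (adjusted p = 0.145). Of the polymerase genes outside the 34, POLE4, a small histone-fold subunit of polymerase epsilon, was lower in metastatic tumours. It read 9.96, 9.13, 9.54, 9.74 and 9.74 in MET1 to MET5, all below the lowest non-metastatic value of 9.97, with a difference of -1.41 ± 0.25 (adjusted p = 0.00944) and -1.53 within the like-labelled arrays (adjusted p = 0.0179). Its second probe set gave -1.6 (adjusted p = 0.0147). POLE, its catalytic subunit, differed by 0.59 ± 0.18 (adjusted p = 0.0724).

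The clamp and its loader gave 0 of 5 past the test (1 at an unadjusted p under 0.05) and a median difference of 0.47. PCNA, the ring that holds polymerases on DNA and a common marker of proliferation, read 11.24, 10.55, 10.60, 10.56 and 11.05 in MET1 to MET5, against 9.47, 10.50 and 10.93 (lowest, median, highest) in non-metastatic tumours. MET1 and MET5 were the highest of the 13, and the other metastatic tumours sat near the non-metastatic median. The difference was 0.47 ± 0.23 (adjusted p = 0.233, 95% interval -0.03 to 0.97). RFC3, RFC4 and RFC5, loader subunits, differed by 0.47, 0.53 and 0.42 with adjusted p from 0.195 to 0.358.

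RFC4 had the widest difference of the group, with 10.24, 9.14, 8.64, 9.41 and 10.03 in MET1 to MET5, against 8.47, 8.99 and 9.53 (lowest, median, highest) in non-metastatic tumours. Again MET1 and MET5 were above all others while MET2, MET3 and MET4 overlapped with the non-metastatic group. RFC2 read 8.55, 8.76, 8.11, 8.11 and 8.21 in MET1 to MET5, against 8.0, 8.51 and 8.57 (lowest, median, highest) in non-metastatic tumours. Here MET2 was the highest and MET5 was low. The difference was -0.04 ± 0.15 (adjusted p = 0.891, 95% interval -0.37 to 0.29).

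Among fork and lagging-strand genes, FEN1, which cuts the flaps left between Okazaki fragments, was higher in metastatic tumours. It read 9.44, 9.42, 8.21, 9.11 and 9.47 in MET1 to MET5, against 7.72, 8.09 and 8.62 (lowest, median, highest) in non-metastatic tumours. MET3 alone lay inside the non-metastatic range, and the other 4 were close together above it. The difference was 1.00 ± 0.22 (adjusted p = 0.0223, 2.0-fold), and 0.84 within the like-labelled arrays (adjusted p = 0.137). It was lost without MET1, without MET2 and without MET5. Its dimmer probe sets differed by 0.42 (adjusted p = 0.0607) and 0.18 (adjusted p = 0.291).

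CHAF1A, the large subunit of the chaperone that deposits histones behind the fork, differed by 0.44 ± 0.13 (adjusted p = 0.0733). TIMELESS, which protects the fork, read 7.32 to 7.36 in the 5 metastatic tumours and 6.82 to 7.34 in the 8 non-metastatic tumours, a difference of 0.24 ± 0.11 (adjusted p = 0.194). RPA3, the smallest subunit of the complex that coats single-stranded DNA, varied in the metastatic tumours without a shift of the group. It read 9.80, 8.78, 9.89, 10.94 and 10.63 in MET1 to MET5, against 9.54, 9.85 and 10.43 (lowest, median, highest) in non-metastatic tumours. MET2 was the lowest and MET4 the highest of all 13. The difference was 0.07 ± 0.29 (adjusted p = 0.905, 95% interval -0.56 to 0.69), its second probe set gave -0.10, and among non-metastatic arrays NM5 to NM8 differed from NM1, NM3 and NM4 by -0.56 (limma, adjusted p = 0.0201).

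Nucleotide synthesis genes had the widest median difference of the 7 roles, 1.19, and 2 of 4 passed. RRM2, the small subunit of ribonucleotide reductase and the one whose level follows S phase, read 10.70, 9.92, 9.07, 9.44 and 10.02 in MET1 to MET5, against 7.07, 7.92 and 8.81 (lowest, median, highest) in non-metastatic tumours. The groups did not overlap, and MET1 was the highest and MET3 the lowest metastatic tumour. The difference was 1.9 ± 0.30 (adjusted p = 0.00444, 3.72-fold), and 1.77 ± 0.35 within the like-labelled arrays (adjusted p = 0.0336). The second RRM2 probe set gave 1.9 (adjusted p = 0.00554).

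TK1, the cytosolic kinase that salvages thymidine and whose blood level is used as a proliferation marker, read 8.81, 8.41, 7.64, 8.83 and 8.55 in MET1 to MET5, against 5.72, 6.69 and 7.18 (lowest, median, highest) in non-metastatic tumours. No values overlapped, and MET3 was the lowest metastatic tumour by a clear step. The difference was 1.93 ± 0.28 (adjusted p = 0.00311, 3.81-fold), and 1.64 ± 0.28 within the like-labelled arrays (adjusted p = 0.022). RRM2 and TK1 passed with any 1 of the 13 tumours left out.

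The partners of these enzymes did not pass. RRM1, the large reductase subunit, which is more stable through the cell cycle, read 9.55, 10.25, 9.94, 9.41 and 10.42 in MET1 to MET5, against 8.85, 9.45 and 9.85 (lowest, median, highest) in non-metastatic tumours. MET1, the highest tumour for RRM2, was inside the non-metastatic range for RRM1. The difference was 0.48 ± 0.20 (adjusted p = 0.178, 95% interval 0.04 to 0.91). RRM2 minus RRM1 within each tumour was -0.08 ± 0.76 in metastatic tumours (SD, n = 5, range -0.87 to 1.15) and -1.5 ± 0.49 in non-metastatic tumours (SD, n = 8, range -2.12 to -0.88), without overlap but by only a narrow step. The difference of 1.42 was 1.16 within the like-labelled arrays and 1.40 with all probe sets averaged.

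TYMS makes thymidylate anew where TK1 recovers it. It read 11.30, 11.12, 10.20, 9.60 and 10.63 in MET1 to MET5, against 9.39, 10.25 and 10.66 (lowest, median, highest) in non-metastatic tumours. MET1 and MET2 were above the non-metastatic range, while MET4, with the highest TK1 value, was near its lower end. The difference was 0.47 ± 0.28 (adjusted p = 0.315, 95% interval -0.13 to 1.07). TK1 minus TYMS was -2.12 ± 0.79 in metastatic tumours (SD, n = 5, range -2.71 to -0.77) and -3.58 ± 0.77 in non-metastatic tumours (SD, n = 8, range -4.68 to -2.61), with a small overlap. The difference of 1.46 was 1.07 within the like-labelled arrays and 1.48 with the TYMS probe sets averaged.

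**Figure D4:**
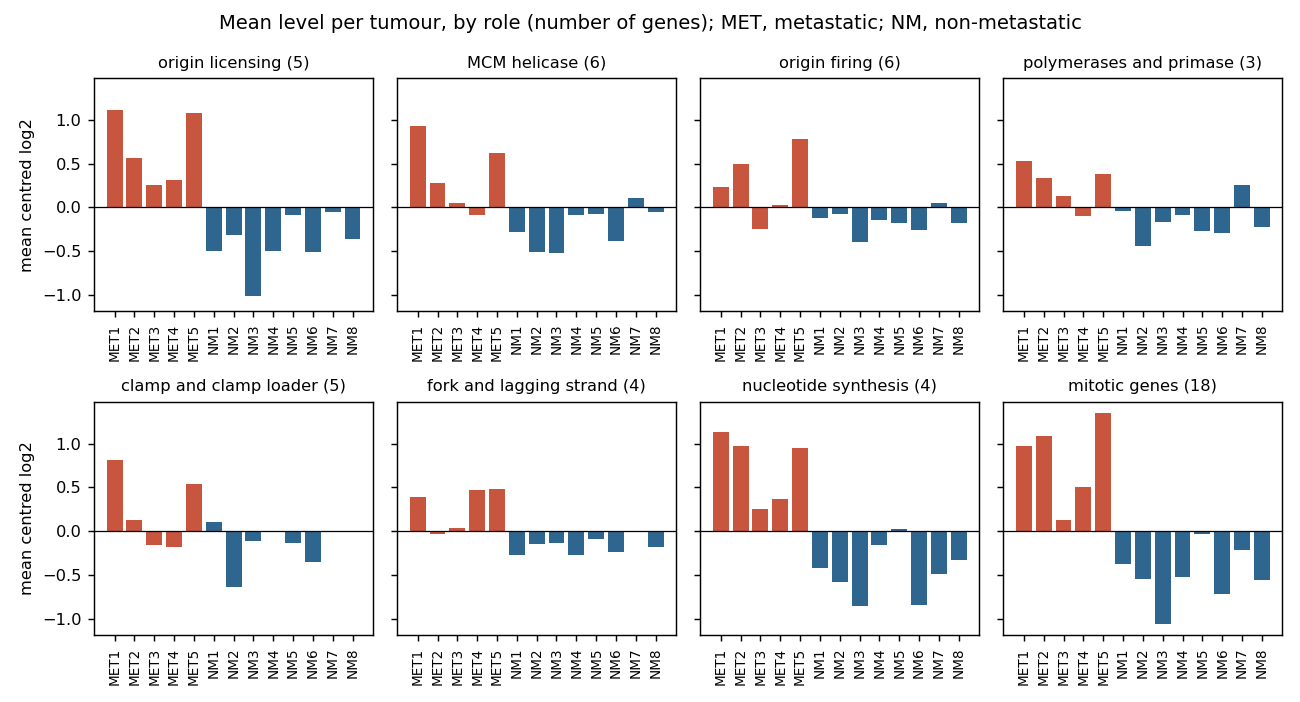
Mean of centred log2 values per tumour for each role group (number of genes in brackets), metastatic tumours left. MET1 or MET5 carries the tallest bar in each panel, MET3 and MET4 lie near 0 in several, and most non-metastatic bars are below 0.

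The metastatic tumours were not alike. Averaged over the 33 genes after centring each, their levels were 0.74, 0.39, 0.03, 0.10 and 0.71 in MET1 to MET5, against -0.48 to -0.02 in the 8 non-metastatic tumours, so that MET3 and MET4 lay just above the highest non-metastatic tumour, NM7. MET1 was the highest of all 13 tumours for 13 genes and MET5 for 10. MET1 and MET5 were both above MET2, MET3 and MET4 for 17 of the 33 genes (51.5%), where 9.26% of all named genes had that order. The 17 included ORC1, CDC6, MCM2 to MCM5, POLE2, PCNA and RRM2. MET4 and MET3 were the lowest of the metastatic tumours for 16 and 14 genes, and MET1 and MET5 for 0, where each of the 5 was lowest for 16.6% to 23.4% of all named genes. GMNN, TK1 and RPA3, with MET4 on top, departed from this order. The SD was larger among metastatic than non-metastatic tumours for 23 of 33 genes (69.7%), against 35.7% of all named genes.

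**Figure D5:**
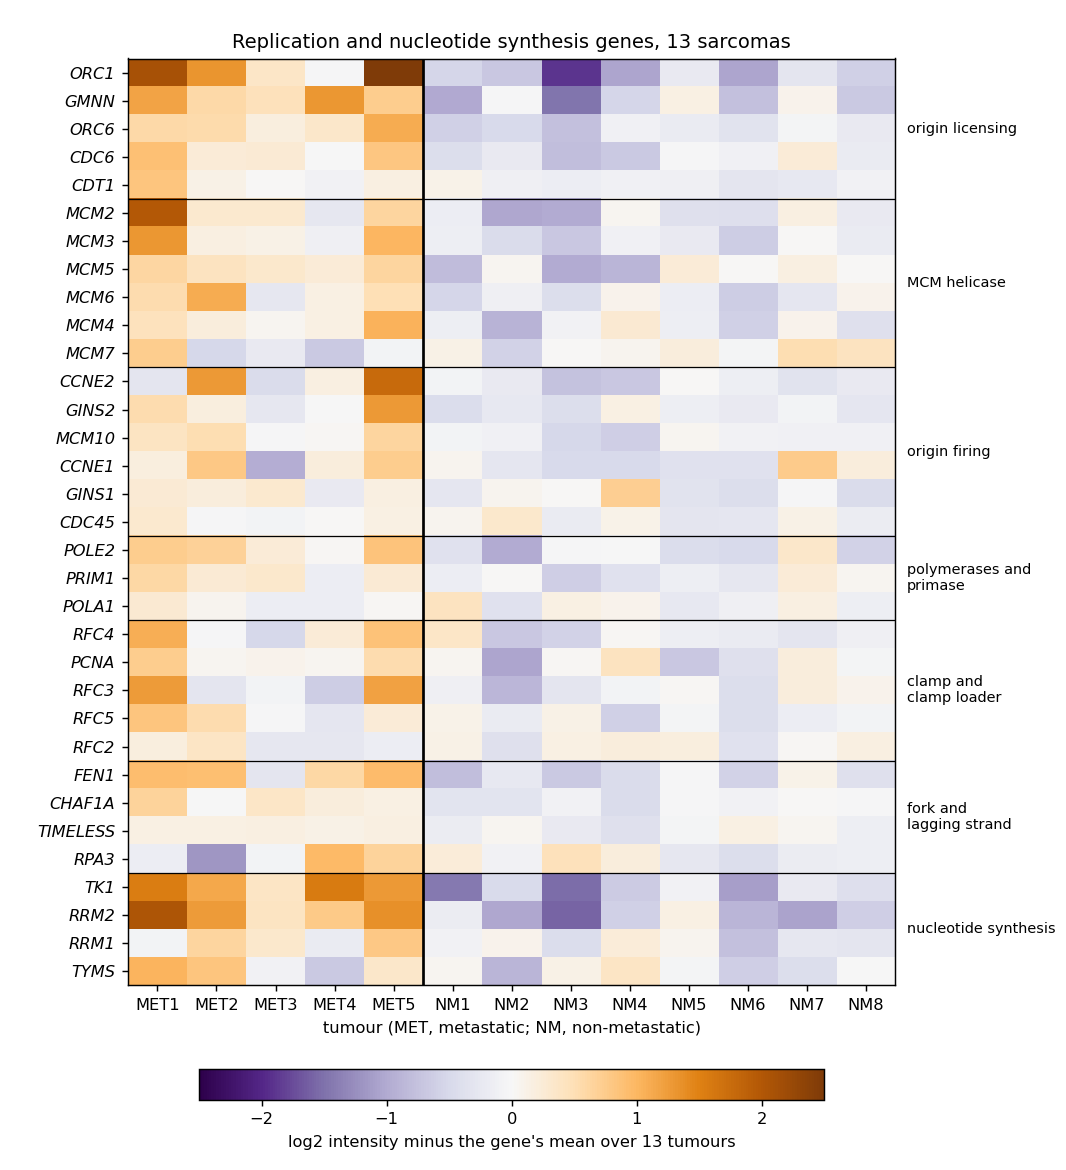
Log2 intensity minus the gene's mean for the 33 genes (rows, by role) in the 13 tumours (columns, metastatic left); orange is above and purple below the mean. Orange is densest in MET1 and MET5, MET3 and MET4 are mixed, and the rows of MCM7, RFC2, POLA1 and RPA3 lack the split between groups.

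Of 38 other measured DNA replication genes, 6 were higher (15.8%) and 1, POLE4 above, was lower (2.63%) in metastatic tumours. Of all named genes, 1.65% were higher and 3.7% lower. The median difference of the 38 was 0.24. The 6 were CDC7 and its activator DBF4, which together form the kinase that fires origins, the nuclease-helicase DNA2, the histone chaperones ASF1A and NASP, and DSCC1, a subunit of an alternative clamp loader. DBF4 differed by 1.28 ± 0.32 (adjusted p = 0.0378) and CDC7 by 0.89 ± 0.21 (adjusted p = 0.0315). In both, and in ASF1A, NASP and DNA2, every metastatic tumour was above every non-metastatic tumour. That held for 13.2% of the 38 and for 1.35% of all named genes. ASF1A differed by 0.86 ± 0.17 (adjusted p = 0.0125), NASP by 0.82 ± 0.20 (adjusted p = 0.032), DNA2 by 0.80 ± 0.19 (adjusted p = 0.031) and DSCC1 by 0.79 ± 0.19 (adjusted p = 0.0321). For DNA2 and DSCC1 both group means lay inside the range of probe sets without target, so these sizes carry no exact meaning. With 1 tumour left out, ASF1A and POLE4 passed in all 13 fits. CDC7 (without MET1, MET2, MET5, NM1, NM3, NM4 or NM8), DBF4 (MET4, MET5, NM1, NM3, NM4, NM5 or NM8), DNA2 (MET1, MET2, MET3, MET5, NM1, NM3 or NM8) and DSCC1 (MET1, MET2, MET4, MET5, NM1, NM3 or NM8) were each lost in 7, and NASP (MET1, MET5, NM1, NM3, NM4 or NM8) in 6. Second or further probe sets of CDC7 (0.82), ASF1A (1.00) and NASP (0.43 to 0.61) were positive and did not pass. DNA2 alone of the 6 also passed within the like-labelled arrays (adjusted p = 0.0448). In those arrays 1 of the 38 passed as higher and 2 as lower, POLE4 and GINS3, where 0.576% and 2.24% of all named genes did. GINS3 differed there by -0.71 (adjusted p = 0.00917), and by -0.47 over all samples (adjusted p = 0.101). Its metastatic mean of 6.70 lay inside the range of probe sets without target.

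Of 24 other nucleotide synthesis genes, 1 was higher (4.17%) and 1 lower (4.17%), where 1.65% and 3.7% of all named genes were. The share passing as lower was thus close to that of all named genes. The median difference was 0.09. PAICS, which carries out a pair of steps of purine synthesis, read 9.30, 9.74, 9.21, 9.61 and 9.81 in MET1 to MET5, all above the highest non-metastatic value of 8.76. It differed by 1.08 ± 0.16 (adjusted p = 0.00375), and by 1.00 within the like-labelled arrays (adjusted p = 0.0212), while its second probe set missed the test (0.84, adjusted p = 0.0726). DGUOK, the mitochondrial deoxyguanosine kinase, was lower by a difference of -0.93 ± 0.20 (adjusted p = 0.0187), a call lost without MET5. Its second probe set also passed (-1.45, adjusted p = 0.00811). Within the like-labelled arrays DGUOK passed as lower (-0.91, adjusted p = 0.0471), and so did ATIC of the same list (-0.58, adjusted p = 0.0469), which had not passed over all samples. In those arrays 2.24% of all named genes passed as lower. The p53-induced reductase subunit RRM2B (-0.20) and the deoxynucleotide hydrolase SAMHD1 (-0.62, adjusted p = 0.20), looked up because of the RRM2 result, did not pass.

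Of 18 measured E2F and DREAM genes, which switch this group of genes on and off, 3 were higher (16.7%) and 1 was lower (5.56%). Of all named genes, 1.65% were higher and 3.7% lower. RBL2 (p130), the pocket protein of the DREAM complex that represses cell cycle genes in resting cells, read 8.0, 8.57, 8.88, 8.68 and 8.03 in MET1 to MET5, against 9.12, 9.92 and 10.28 (lowest, median, highest) in non-metastatic tumours. Every metastatic tumour was below every non-metastatic tumour, and the lowest values were in MET1 and MET5. The difference was -1.42 ± 0.20 (adjusted p = 0.00311), and -1.59 within the like-labelled arrays (adjusted p = 0.0102). Of its other 3 probe sets, 1 passed (-1.14, adjusted p = 0.0265) and the dimmer 2 did not (-0.37 and -0.24). The activators of later cell cycle genes MYBL2 (1.32 ± 0.28, adjusted p = 0.0184), LIN9 (1.21 ± 0.24, adjusted p = 0.0141) and FOXM1 (1.00 ± 0.25, adjusted p = 0.0373) were higher, while E2F1 differed by 0.40 ± 0.16 (adjusted p = 0.148). The second probe sets of LIN9 (-0.10) and FOXM1 (0.25) did not pass, and that of MYBL2 did (1.17, adjusted p = 0.00944). RBL2 and LIN9 passed with any 1 tumour left out, MYBL2 was lost without MET1 and without MET5, and FOXM1 was lost in 8 of 13 such fits, passing only without MET4, NM2, NM5, NM6 or NM7. The non-metastatic mean of LIN9 was not above 7.16.

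Markers of the cells a tumour can hold were read the same way. Of 18 mitotic genes 12 were higher (66.7%, where 1.65% of all named genes were) and 0 lower. All 18 differences were positive, and the median was 1.29. Within the like-labelled arrays 4 of the 18 passed as higher, all among these 12 (CDK1, CCNA2, PLK1 and DLGAP5). There 0.576% of all named genes passed as higher. The median of the 18 was 1.30. Their mean centred level was 0.97, 1.09, 0.13, 0.51 and 1.35 in MET1 to MET5 against -1.07 to -0.04 in non-metastatic tumours, again lowest of the metastatic tumours in MET3. Of 14 mesenchymal markers 4 were lower (THY1, DCN, FAP and S100A4), which is 28.6%, where 3.7% of all named genes were. Mean levels of the 14 were 11.28 to 12.22 in metastatic and 11.73 to 12.34 in non-metastatic tumours. DCN, a collagen-binding proteoglycan, also passed within the like-labelled arrays (adjusted p = 0.0346) and with any 1 tumour left out, whereas THY1, FAP and S100A4 did not pass there (adjusted p = 0.133, 0.174 and 0.209) and were lost in 10, 10 and 7 of the 13 fits with 1 tumour left out. Among T and NK cell markers 0 of 13 passed (3 at an unadjusted p under 0.05), with mean levels of 6.78 to 7.23 in metastatic and 6.67 to 7.18 in non-metastatic tumours. Among macrophage markers 0 of 12 passed (0 unadjusted), with 8.08 to 10.03 in metastatic and 8.38 to 9.83 in non-metastatic tumours. Their mean centred level was -0.31, -1.11, 0.84, 0.69 and -0.56 in MET1 to MET5, so it was high in MET3 and MET4, the metastatic tumours lowest for the replication genes. In NM1 to NM8 it was -0.81, 0.44, 0.34, 0.64, 0.01, -0.16, 0.44 and -0.43. The level of the 33 replication genes there was -0.22, -0.38, -0.48, -0.18, -0.11, -0.41, -0.02 and -0.18, without the same order. Skeletal muscle markers gave 0 of 9 (1 unadjusted), with 6.87 to 8.93 in metastatic and 6.47 to 7.30 in non-metastatic tumours. The upper value is MET5, whose mean centred level of 1.85 stood apart from at most 0.38 in every other tumour. There the myosin gene MYH2 read 9.28, against 3.94 to 4.53 in the other metastatic tumours and at most 6.44 in non-metastatic tumours. Not every marker had this order. ACTA1 was higher in MET3 (11.44) than in MET5 (11.30), and ACTN2 was lowest of the metastatic tumours in MET5 (7.29). B and plasma cell markers gave 0 of 8 (2 unadjusted), with 6.26 to 6.64 in metastatic and 6.22 to 6.79 in non-metastatic tumours, endothelial markers 0 of 11 (0 unadjusted), with 8.02 to 8.81 and 7.66 to 9.38, and epithelial markers 0 of 7 (0 unadjusted), with 5.54 to 6.08 and 5.55 to 6.41. No marker was listed at 0, and the part of any cell type in the replication gene differences was not tested.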

How the data were processed

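Per the labels, total RNA was purified on silica columns and biotinylated in 1 cycle of 3′ labelling. The authors deposited processed values for every probe set in 1 table, read here as log2 from their range (0 to 14.33), since no source used here states their scale, software, background correction or normalization. After 111 control probe sets were set aside, 42924 were tested, used as deposited. The platform annotation named 29264 of the table's 43035 probe sets with 1 symbol, 439 with several (left unnamed) and 13332 with none. Of the 33 gene identifiers, 29 were found in the RefSeq table of UU_Cfam_GSD_1.0, all under the same symbol. No sequences were analysed here.

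A linear model per probe set with group as its only term was fitted in limma 3.58.1 (lmFit, then eBayes, under R 4.3.3). Tests were two-sided and p-values were adjusted by Benjamini-Hochberg over every tested probe set, with 0.05 as the threshold. A difference carries its SE, a group mean its SD, and intervals are 95%. The number of arrays limits the precision. In 43000 simulated probe sets with independent normal noise, 22 of 100 differences of 1 and 79 of 100 differences of 2 were recovered. The other 42800 held no difference, whereas 2104 probe sets passed in these data, so the adjusted threshold was stricter in the simulation. Its shares therefore do not give the recovery of the test used here. The ACTB value was compared by an exact permutation test over 1287 splits. Summaries and plots used Python 3.11.15, numpy 2.4.6, pandas 2.3.3, scipy 1.17.1 and matplotlib 3.10.9.

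The genes, the lists and the split by control signal were chosen with earlier results of these data known. Sample values are given for genes with a probe set past the threshold and for the widest and narrowest difference of each role. Of the other lists, genes past the threshold and up to 4 of the next smallest p are named, apart from those said to be looked up later.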

Additional observations from a re-analysis of the deposited data

Results flagged for a closer look

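Within each group of tumours, the highest and the lowest value of each of the 33 genes was compared with its neighbour by Dixon's test, and 4 of 66 groups held a value far from the rest, where chance gives about 1 in 20. CDT1 read 8.58 in MET1, above 7.66 to 7.91 in the other metastatic tumours. FEN1 read 8.21 in MET3, below 9.11 to 9.47 in the other metastatic tumours. GINS1 read 8.25 in MET4, below 8.64 to 8.78 in the other metastatic tumours. GINS1 also read 9.18 in NM4, above 8.02 to 8.55 in the other non-metastatic tumours.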

How the results depend on the processing

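The count of 7 genes past the test was 11 after quantile normalization (adding CDC6, MCM4, MCM5 and MCM6), 2 within the like-labelled arrays, and 5 to 9 with any 1 tumour left out. The count of 12 probe sets was 18 after quantile normalization, 3 within the like-labelled arrays and 7 to 16 with 1 tumour left out, with 7 without MET5. After quantile normalization, and again without MET1, 1 probe set of the 33 genes passed as lower. Leaving out 1 tumour within the like-labelled arrays gave 0 to 4 genes and 0 to 5 probe sets. These subsets hold fewer arrays. The median difference of the 33 genes stayed positive in every setting run, between 0.38 and 0.69. With the replicate number as a block, 4 genes passed, GMNN, POLE2 and FEN1 being lost. The same 10 samples without the block gave 5. The numbers do not pair the tumours, since the correlations of same-numbered tumours were -0.0086 to 0.0782 and 1 of 5 numbers was closest to itself. The covariate for the ACTB value (7), limma's trend and robust options (7), dropping dim probe sets (8) and averaging each gene's probe sets (8) left the count of genes within 1.5 times. With averaging, ORC6 was lost and CDC6 and MCM3 passed.

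Signs turned only for genes that had not passed. After quantile normalization POLA1 differed by -0.0033 and RFC2 by 0.049, and with the ACTB covariate RFC2 differed by 0.0008. RPA3 differed by -0.072 with the replicate block or the same samples without it, and by -0.0185 with its probe sets averaged. With any 1 tumour left out, of all 13 or of the 9 like-labelled, POLA1 ran from -0.0525 to 0.178, RFC2 from -0.152 to 0.028, RPA3 from -0.168 to 0.602 and CCNE1 from -0.025 to 0.595. The cause of these changes was not tested.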
